A study of Mus musculus with 2 samples.

Results

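Proteasome subunit genes were followed in adult mouse liver, with and without Fhl2 as the labels have it. Fhl2 encodes a LIM-domain cofactor of transcription factors. The members are the genes whose full symbol is Psma, Psmb, Psmc, Psmd, Psme, Psmf or Psmg and a number, each read from the probe with the highest mean of both arrays. They are 48 of 19938 measured genes, and 46 of the 48 lay past the level filter described below. Psmc3ip and Psme3ip1 begin like members, but their symbols go on after the number. They encode other proteins and were left out.

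The wild-type group is 1 pool of left-lobe liver RNA from 3 male mice, and the second group is 1 such pool of FHL2-/- mice. All mice were 10 to 11 weeks old on a Hybrid Black Swiss/129-SV/J background. With 1 array per pool there was no replicate, so no p-value is given and each difference compares these pools only. The labels do not say which part of Fhl2 was deleted, and its probe read 5.30 in wild-type RNA and 5.33 in the other pool on the log2 scale, both below the level filter used here, so it does not check the genotype. The second pool is therefore called the knockout-labelled pool.

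The proteasome is the protease that degrades ubiquitin-tagged proteins in the cytosol and nucleus. Its barrel-shaped core is built of alpha rings, which form the gate, and beta rings, which hold the cutting sites. A regulatory particle docks on the core, where its ATPase ring unfolds substrates and its lid removes ubiquitin. In cells exposed to interferon, inducible beta subunits replace the standard catalytic ones and form the immunoproteasome, which favours peptides for MHC class I. Separate chaperones build the core and the base, and when proteasome activity falls the transcription factor NRF1, encoded by Nfe2l1, raises the subunit genes together.

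Short promoter stretches are shown first, because the known inputs to these genes, NRF1 and interferon, act through such letters. RefSeq windows of assembly GRCm38.p6, which run from 250 bases before to 50 bases after a gene start, matched 40 of the 48 members in 43 windows. Psma8, Psmb1, Psmb2, Psmb7, Psmc3, Psmd3, Psmd7 and Psmg2 had no entry. The core of the antioxidant response element to which NRF1 binds was searched as TGACNNNGC on both strands. It was in 6 of the 43 member windows (13.95%), beside 12.4% of all 32851 windows. Each match is printed in the direction of its gene with up to 10 bases on either side, and the capitals mark the matched letters.

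Psmb5, chr14:54618024-54618052: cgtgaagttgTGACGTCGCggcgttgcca
Psmb6, chr11:70525338-70525366: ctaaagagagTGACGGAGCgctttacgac
Psmc6, chr14:45329587-45329615: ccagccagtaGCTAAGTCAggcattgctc
Psmd9, chr5:123228149-123228177: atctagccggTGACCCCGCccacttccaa
Psmd12, chr11:107479278-107479299: tctGCTGTGTCAcatttgcccc
Psme4, chr11:30771758-30771786: cgctgcggctGCAGCGTCAccagaagagc

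The Psmb5 gene lies on the minus strand and the other 5 on the plus strand. In Psmc6, Psmd12 and Psme4 the letters match on the strand opposite to the gene. The matched genes encode catalytic subunits (Psmb5 and Psmb6), an ATPase (Psmc6), a lid subunit (Psmd12), an assembly chaperone (Psmd9) and an activator (Psme4). Their log2 differences, knockout-labelled minus wild-type, ran from -0.04 to 0.11 with a median of 0.03. The 33 members past the level filter whose windows lack these letters had a median of 0.0027.

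The interferon stimulated response element was searched on both strands as the letters GAAA, then any 2 bases, then GAAA again. It was in 5 of the 43 member windows (11.6%), beside 3.44% of all windows, and no match of this motif overlapped one of the other.

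Psmb3, chr11:97703261-97703290: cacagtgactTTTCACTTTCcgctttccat
Psmd4, chr3:95042675-95042704: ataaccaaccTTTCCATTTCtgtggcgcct
Psmd9, chr5:123228021-123228050: gggacagaatGAAAAAGAAAggaatgaaca
Psme1, chr14:55578493-55578522: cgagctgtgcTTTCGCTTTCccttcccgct
Psmg4, chr13:34162969-34162998: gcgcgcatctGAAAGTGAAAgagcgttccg

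Psmd4 lies on the minus strand and the other 4 genes on the plus strand. The Psme1 letters begin 9 bases after the annotated start and those of Psmg4 begin 15 bases after it. Both genes return below. By the probe used for each gene, Psme1 had the lowest and Psmg4 the highest difference of all members past the level filter. The 5 matched genes thus ran from -0.27 to 0.19, with a median of 0.07, and the 34 members past the filter without the letters had a median of -0.0081. The windows of the inducible genes Psmb8, Psmb9, Psmb10 and Psme2 held no match of this motif. A match is a string of letters in the reference genome, and binding was not measured.

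Proteasome transcripts differed little between the pools. A gene was counted past the level filter when its mean of both arrays reached 5.44, the 40th percentile of probes with 1 gene symbol. Every member past the filter lay above 5.44 in both pools, the dimmest being Psmg4 at 6.35 and 6.54. Of these 46 members, 0 were at least 1.5-fold higher, beside 0.621% of all 11924 genes past the filter, and 0 were at least 1.5-fold lower, beside 0.335%. At such shares a count of 0 is near the background. At 1.2-fold the counts were 0 higher, beside 8.66% of all genes, and 1 lower, beside 6.16%. The 1 member past 1.2-fold by the probe used for each gene was Psme1. A second probe of Psma5, described below, was also past 1.2-fold, at 0.35.

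Their values lay close together. Within 0.1 of 0 on the log2 scale were 34 of the 46 members (73.9%), beside 44.5% of all genes past the filter. Brighter probes differ less on these arrays, so the members were also set beside the 1303 genes whose mean lay between the level quartiles of the members, 9.07 and 10.50. Of these genes 55.2% lay within 0.1. All 46 members span 6.44 to 11.39, so the 2 sets are not matched in level outside the quartiles. The median size of the difference, sign ignored, was 0.05 for the members, 0.09 for the 1303 genes and 0.11 for all genes past the filter. Without replicates, how much of either spread lies between mice or hybridisations was not measured.

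**Figure D1:**
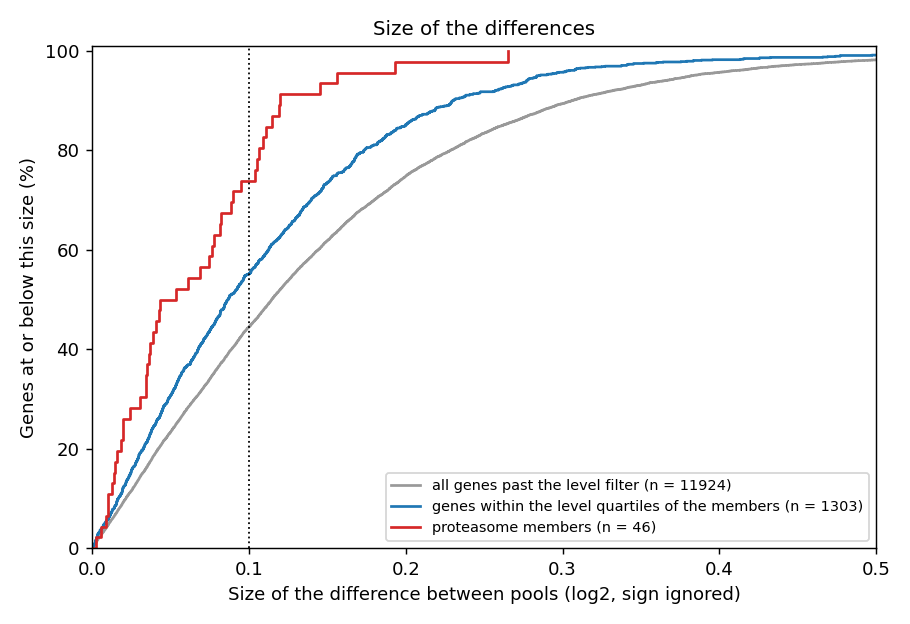
The share of genes (vertical axis, percent) whose difference between the pools is at or below a given size (horizontal axis, log2, sign ignored), for the 46 proteasome members, the 1303 genes within their level quartiles and all 11924 genes past the level filter. At the dotted line, 0.1, the members stand at 73.9%, the genes within their level quartiles at 55.2% and all genes at 44.5%. The members also hold genes outside these quartiles.

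The members were divided about evenly around 0, with 24 above and 22 below, while 59.5% of all genes past the filter were above 0. Their median difference was 0.0065, beside 0.04 for all genes past the filter. The sign of a value this small depends on scaling. After a shift of the arrays to a common median, which raised every difference by 0.04, 39 of the 46 members were above 0. The share of all genes above 0 after this shift was not counted. The members' median was then 0.05, beside 0.08 for all genes past the filter. After the trend on level was removed it was -0.04, beside 0.0039. The members' median thus stayed below that of all genes in each of these settings.

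**Figure D2:**
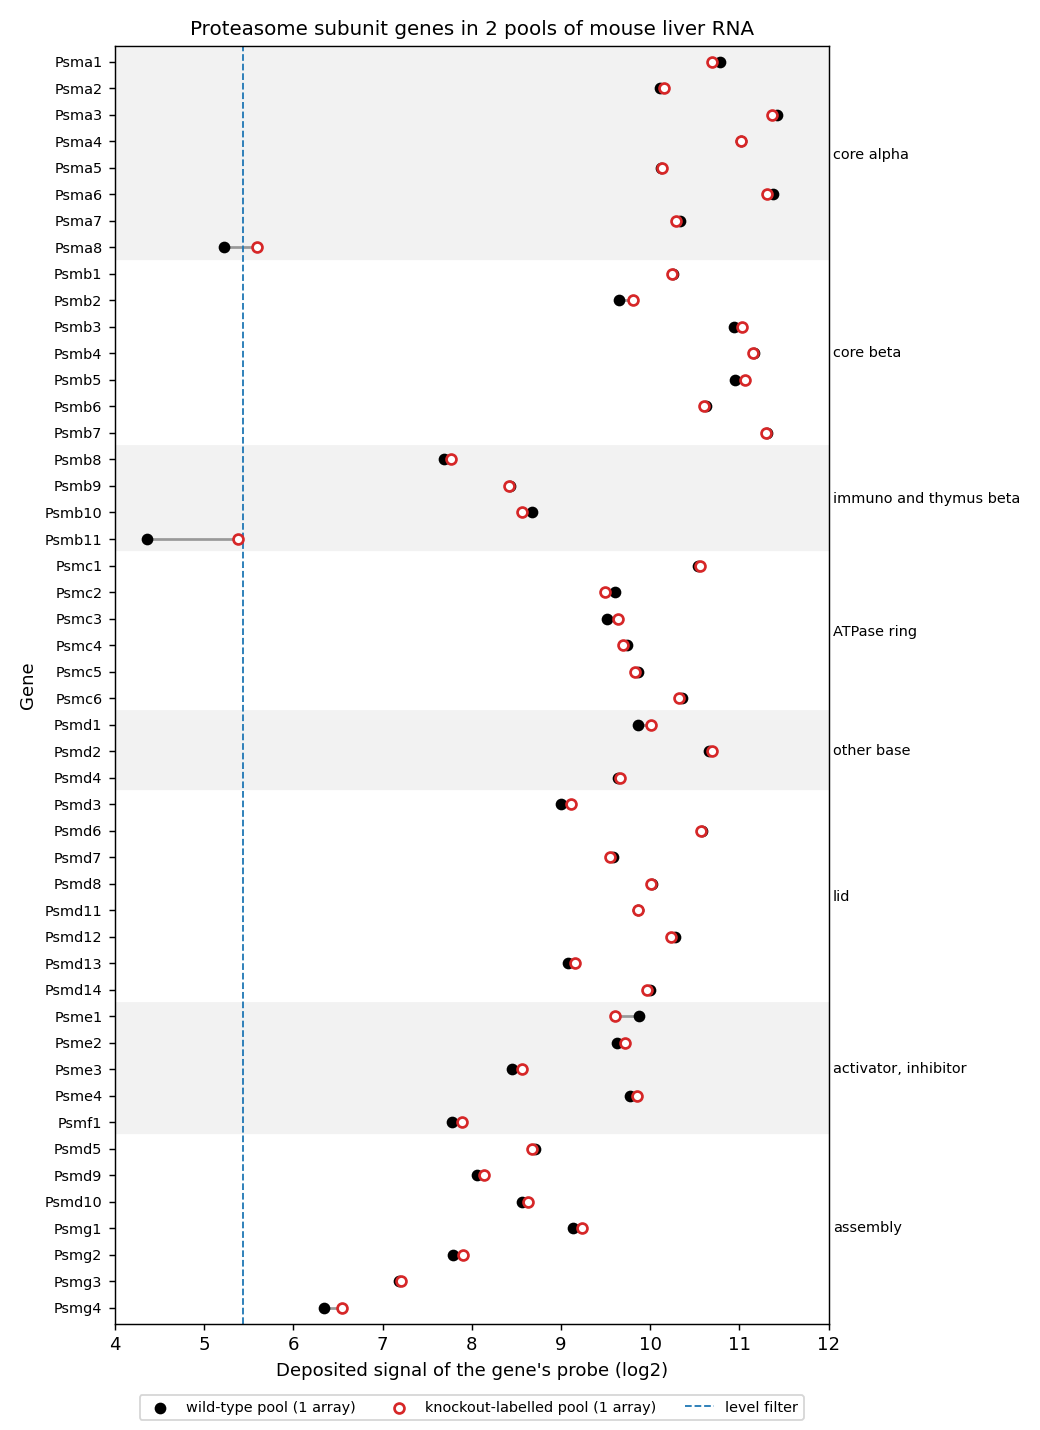
Deposited log2 signal (horizontal axis) of each of the 48 members in the wild-type pool (black) and the knockout-labelled pool (open red), grouped by class, with 1 array per pool. Most pairs of points overlap, Psme1 is shifted to the left in the knockout-labelled pool, and Psma8 and Psmb11 lie around the level filter of 5.44 (dashed) or below it.

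The alpha subunits, which form the outer rings and the gate of the core, were the class with the lowest median, at -0.04 over the 7 members past the filter. Psma1 read 10.79 in wild-type RNA and 10.70 in knockout-labelled RNA, a difference of -0.09. Psma6 read 11.37 and 11.31, Psma3 11.42 and 11.37, and Psma7 10.33 and 10.29. Psma4 read 11.02 and 11.01, a difference of -0.0058. On the other side of 0 were Psma5, at 10.13 and 10.14, and Psma2, at 10.11 and 10.15. All 7 lay within 0.1 of 0, beside 44.5% of all genes past the filter. In the knockout-labelled pool 5 of the 7 were lower, while 59.5% of all genes were above 0. After the common median shift the class median was -0.0019.

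Repeat probes show how far readings of 1 member can differ. The 3 probes of Psma3 differed by -0.12, -0.05 and -0.05, so they shared a sign. The other probe of Psma5 read 9.11 and 9.46, a difference of 0.35, while the probe used for it gave 0.01. The mean over both Psma5 probes was 0.18, above every alpha subunit past the filter. The probes of Psmb3 gave 0.09 and -0.0069, those of Psmc1 0.02 and -0.06, and those of Psmd2 0.03 and 0.05. Over 660 genes of the array with 1809 probes past the filter, the SD between probes of 1 gene was 0.143, which is wider than the differences of most members.

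Psma8, the alpha subunit of germ cells, stood below the level filter. It read 5.22 in wild-type RNA and 5.59 in knockout-labelled RNA. The defining germ cell markers protamine Prm1, transition protein Tnp1, Ldhc and synaptonemal Sycp3 were also below the filter, between 3.23 and 5.36, and their differences lay between -0.03 and 0.01. Of the same list, Prm2 and Tnp2 were past the filter, at -0.01 and -0.15, so no germ cell marker shared the difference of 0.37 of Psma8.

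The standard beta subunits line the chamber in which proteins are cut, and their 7 members had a median of -0.0091. Psmb5, which carries the chymotrypsin-like site, read 10.95 in wild-type RNA and 11.06 in knockout-labelled RNA. Psmb6, with the caspase-like site, read 10.62 and 10.60, and Psmb7, with the trypsin-like site, 11.31 and 11.30. Psmb5 was thus 0.11 higher, and the other 2 catalytic subunits differed by less than 0.02. Among the subunits without a cutting site, Psmb2 read 9.65 and 9.81, the highest difference at 0.16 among core members past the filter by the probe used for each gene. Psmb3 read 10.94 and 11.03, Psmb1 10.26 and 10.24, and Psmb4 11.17 and 11.15. The class mean was 0.04, of the opposite sign to its median, because 4 members were just under 0 and 3 lay at 0.09 to 0.16.

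The inducible beta subunits of the immunoproteasome differed in both directions. Psmb8, which takes the place of Psmb5, read 7.69 in wild-type RNA and 7.77 in knockout-labelled RNA. Psmb9, the counterpart of Psmb6, read 8.43 and 8.42. Psmb10, the counterpart of Psmb7, read 8.67 and 8.56, a difference of -0.11. Set against its standard counterpart, the difference was lower by 0.03 for Psmb8, higher by 0.0057 for Psmb9 and lower by 0.10 for Psmb10. These offsets lie within the 0.143 SD between probes of 1 gene.

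Psmb8 and Psmb9 are neighbours in the MHC region, where Psmb9 and the peptide transporter gene Tap1 start back to back. The 225 bases between their starts, chr17:34187331-34187555 on the plus strand of GRCm38.p6, are printed whole because both genes share them, in lower case since they hold neither motif.

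Psmb9 to Tap1: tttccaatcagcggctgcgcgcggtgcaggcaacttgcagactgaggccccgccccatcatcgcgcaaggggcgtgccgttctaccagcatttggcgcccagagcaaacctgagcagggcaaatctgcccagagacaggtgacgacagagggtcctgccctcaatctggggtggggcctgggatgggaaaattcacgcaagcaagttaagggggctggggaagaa

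Around this stretch the differences were small and of both signs. Tap1 was at 8.02 in wild-type RNA and 7.94 in knockout-labelled RNA, and Tap2, next to Psmb8, at 7.92 and 8.05. In chromosome order, the differences of Psmb9, Tap1, Psmb8 and Tap2 were -0.01, -0.08, 0.08 and 0.14.

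Psmb11, which replaces Psmb5 in the cortical epithelium of the thymus, read 4.36 in wild-type RNA and 5.37 in knockout-labelled RNA. This is the only member past 2-fold, at 2.02-fold, but both values lay below the level filter, where a fold is uncertain in size. Without the filter Psmb11 was the 1 member of 48 at least 1.5-fold higher, beside 0.767% of all 19938 genes. The share of all genes past 2-fold was not counted. Of 2 genes that mark the same epithelium, Foxn1 read 5.48 and 5.27 and the protease Prss16 4.68 and 4.85.

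**Figure D3:**
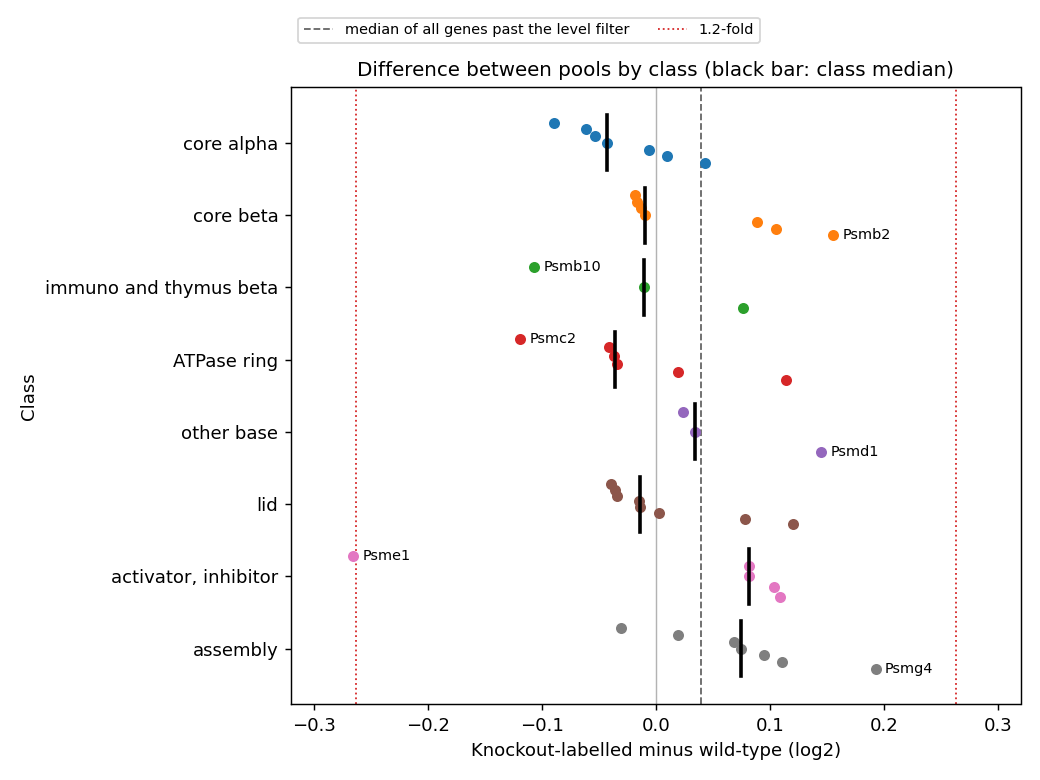
Difference between the pools (horizontal axis, knockout-labelled minus wild-type, log2) of the 46 members past the level filter, 1 point per gene, by class, with the class median as a black bar. The medians run from -0.04 in the alpha subunits to 0.08 in the activators and inhibitor, and Psme1 alone passes a dotted 1.2-fold line.

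The regulatory particle showed the same narrow range. Its 6 ATPases, which unfold the substrate and push it into the core, had a median of -0.04. Psmc2 read 9.61 in wild-type RNA and 9.49 in knockout-labelled RNA, the lowest of the class at -0.12. Psmc3 read 9.52 and 9.63, the highest at 0.11. The remaining members were Psmc1 at 0.02, Psmc4 at -0.04, Psmc5 at -0.04 and Psmc6 at -0.03. The ATPases are assembled in equal number into 1 ring, and the class held both signs, with 4 below 0 and 2 above.

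The base also holds the scaffold subunits Psmd1 and Psmd2 and the ubiquitin receptor Psmd4. All 3 were above 0, beside 59.5% of all genes past the filter, with a median of 0.03. Psmd1 read 9.86 in wild-type RNA and 10.00 in knockout-labelled RNA, a difference of 0.15. Psmd2 read 10.66 and 10.70, and Psmd4 9.64 and 9.66.

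The lid had a median of -0.01 over 8 members. Psmd14, the deubiquitinase that removes ubiquitin chains from the substrate, read 10.00 in wild-type RNA and 9.97 in knockout-labelled RNA. Its partner Psmd7 read 9.58 and 9.55. Psmd3 read 9.00 and 9.12, the highest difference of the lid at 0.12, followed by Psmd13 at 9.08 and 9.15. Psmd11, whose product helps join lid and core, read 9.86 in both pools. Psmd12 at -0.04 was the lowest of the class, and Psmd6 and Psmd8 were both at -0.01. By size, 7 of the 8 lid members lay within 0.1 of 0, beside 44.5% of all genes past the filter.

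The members that belong to the core and the regulatory particle, without Psma8 and the inducible subunits, are 31 standard subunits. Sem1, a lid subunit with another kind of symbol, is not among them and is read with the partners below. Their mean signals all lay at percentile 89.4 of probes with 1 symbol or above, a place that depends on the probe as well as on the amount of RNA. By the probe used for each gene, none of the 31 passed 1.2-fold, beside 8.66% of all genes past the filter higher and 6.16% lower. Within 0.1 of 0 lay 25, beside 44.5% of all genes. The other probe of Psma5 did pass 1.2-fold, at 0.35. Summed over these genes, the signal off the log scale was 42165 in wild-type and 42205 in knockout-labelled RNA.

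The activators held the member farthest from 0 past the filter by the probe used for each gene. Psme1 and Psme2 encode the alpha and beta subunits of PA28, an interferon-inducible cap that opens the core without ATP. Psme1 read 9.87 in wild-type RNA and 9.60 in knockout-labelled RNA. Its difference of -0.27 lay just past 1.2-fold. Psme2, 2 genes further along chromosome 14, read 9.63 and 9.71, a difference of 0.08. The Psme1 difference was thus 0.35 below that of its partner. A further probe, annotated to both Psme2 and its copy Psme2b, read 8.68 and 8.45, a difference of -0.23, so the probes that can read Psme2 disagree in sign. Psme1 was read by 1 probe, and after the common median shift it was at -0.22, short of 1.2-fold. With the trend on level removed it was at -0.31, further past 1.2-fold.

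The other regulators lay above 0. Psme3, the nuclear homologue of PA28, read 8.45 in wild-type RNA and 8.56 in knockout-labelled RNA. Psme4, the large activator PA200, read 9.77 and 9.85. Psmf1, known as the inhibitor PI31, read 7.78 and 7.89. With Psme2, these 3 lay between 0.08 and 0.11, above the 0.04 of all genes past the filter, and the class median was 0.08.

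Assembly factors had a median of 0.07, with 6 of 7 above 0, beside 59.5% of all genes past the filter, and 0 past 1.2-fold in either direction. With the trend on level removed, Psmg3 moved from 0.02 to -0.04. Psmg1 and Psmg2, whose products pair to build the alpha ring, read 9.14 and 9.23, and 7.79 and 7.90. Psmg3 and Psmg4 form the other such pair. Psmg3 read 7.19 in wild-type RNA and 7.20 in knockout-labelled RNA, and Psmg4 6.35 and 6.54. By the probe used for each gene, the Psmg4 difference of 0.19 was the highest among members past the filter. The chaperones of the base were Psmd9 at 8.06 and 8.14, Psmd10, also called gankyrin, at 8.56 and 8.63, and Psmd5 at 8.71 and 8.67. Psmd5 was the 1 member below 0. The assembly genes lay between 6.44 and 9.19 in mean level, and without the trend on level their median was 0.02.

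Genes that work beside the proteasome lay close to 0 as well. Of 16 listed partners 13 were measured and past the filter. Of the 13, 10 lay within 0.1 (76.9%), beside 44.5% of all genes past the filter. Their median was 0.02. At 1.2-fold 0 were higher, beside 8.66% of all genes, and 1 lower, beside 6.16%, so these counts are near the background. The lower gene was Zfand5, an activator of the 26S particle, which read 8.96 in wild-type RNA and 8.64 in knockout-labelled RNA, 1.25-fold lower. Pomp, the maturation factor of the core, read 10.98 and 11.03, and the lid subunit Sem1 10.89 and 10.88. The deubiquitinases Usp14 and Uchl5, which sit on the regulatory particle, were at -0.02 and 0.05.

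Enzymes that activate and transfer ubiquitin had a median of -0.0028 over 13 members past the filter, of 18 listed. At 1.2-fold 0 were higher, beside 8.66% of all genes past the filter, and 0 lower, beside 6.16%. With 13 genes these counts are near the background. The lowest was Uba6, an activating enzyme, at -0.20, and the highest Cul3, a scaffold of ubiquitin ligases, at 0.17.

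The list around NRF1 holds Nfe2l1, its relatives, Maf proteins, the regulator Keap1 and the factors that process NRF1. Of its 14 members past the filter 5 lay within 0.1 (35.7%), beside 44.5% of all genes past the filter. The median was 0.07. At 1.2-fold 2 were higher, beside 8.66% of all genes past the filter, and 2 lower, beside 6.16%. At 1.5-fold 1 was higher, beside 0.621%, and 1 lower, beside 0.335%. Nfe2l1 itself read 9.08 in wild-type RNA and 9.24 in knockout-labelled RNA, and the related factor Nfe2l2 8.35 and 8.52. Their differences of 0.16 and 0.17 stood beside a median of 0.0065 for the proteasome members. Of the genes past 1.2-fold, Syvn1, a ubiquitin ligase of the endoplasmic reticulum that acts on many other proteins, was 1.56-fold lower, and Nfe2l3 was 1.35-fold lower with 5.67 and 5.23 around the filter. Maf, a large Maf protein rather than one of the small partners of NRF1, was 1.58-fold higher, and the small partner Mafk was 1.21-fold higher. Vcp, the ATPase that extracts NRF1 from the membrane, was at -0.05, and Ngly1, which removes its sugars, at 0.06.

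The immunoproteasome and PA28 serve MHC class I, so that pathway was read beside them. It had a median of -0.04 over 10 members. At 1.2-fold 0 were higher, beside 8.66% of all genes past the filter, and 1 lower, beside 6.16%. With 10 genes these counts are near the background. The lower gene was Pdia3, a chaperone of the loading complex and of other glycoproteins, at 1.26-fold. The loading factor Tapbp was at 0.23 and beta-2-microglobulin, B2m, at -0.06. The transactivator Nlrc5 was at -0.26, though its 19 probes ran from -0.28 to 0.20.

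Interferon response genes had a median of 0.03 over 14 members past the filter. At 1.2-fold 1 was higher, beside 8.66% of all genes past the filter, and 1 lower, beside 6.16%. With 14 genes these counts are near the background. Irf1, which is known to bind the promoters of the inducible subunits, read 7.77 in wild-type RNA and 7.46 in knockout-labelled RNA, 1.24-fold lower. Its other probe gave -0.43. Ifit1, an antiviral protein, read 6.29 and 6.62, 1.26-fold higher. Among the inducible members past the filter, Psme1 at -0.27, Psmb10 at -0.11 and Psmb9 at -0.01 were lower, as Irf1 was. Psmb8 and Psme2 were higher, both at 0.08. Apart from Psme1, these differences are smaller than the 0.143 SD between probes of 1 gene. A link of these genes to Irf1 was not tested.

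Markers of liver cells were read because the inducible subunits and PA28 are abundant in immune cells. Of 16 macrophage markers 14 were past the filter, with a median of -0.19. Of the 14, 12 were below 0 and 2 above, while 59.5% of all genes past the filter were above 0. At 1.2-fold 6 were lower, beside 6.16% of all genes, and 0 were higher, beside 8.66%. The summed signal of the 14 off the log scale was 4018 in wild-type RNA and 3566 in knockout-labelled RNA, a ratio of 0.887. The lowest were Adgre1, the F4/80 receptor, at -0.40, the scavenger receptor Marco at -0.38 and lysozyme Lyz2 at -0.36. The markers did not move as 1, since Cd163 was at 0.24 and C1qc at 0.22. Timd4 was at -0.0025 and Cd5l at -0.0077. The part of these markers in the differences of Psme1 and Psmb10 was not tested, and in bulk RNA fewer cells of a type and less RNA per cell cannot be told apart.

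T and NK cell markers had 3 of 11 measured genes past the filter, and B and plasma cell markers 2 of 9. The defining T cell gene Cd3e read 5.83 in wild-type RNA and 5.69 in knockout-labelled RNA, near the filter. Cd8a read 5.65 and 5.24, 1.32-fold lower. Its mean lay at the filter and its knockout-labelled value below it, so this fold is uncertain in size. Among the markers of both lists past the filter, Cd8a was the 1 past 1.2-fold, beside 8.66% of all genes higher and 6.16% lower. T and NK markers below the filter had both signs, such as Cd2 at -0.51 and Cd4 at 0.28. The defining B cell gene Ms4a1 read 3.99 and 4.04. Endothelial markers had a median of 0.13, with 7 of 8 above 0, beside 59.5% of all genes past the filter. Past 1.2-fold were 0, beside 8.66% of all genes higher and 6.16% lower. The hepatocyte markers, which check the tissue label, were bright in both pools. The 10 measured lay between 10.76 and 13.70 in mean level, with a median difference of 0.0021. Past 1.2-fold were 0, beside the same shares.

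**Figure D4:**
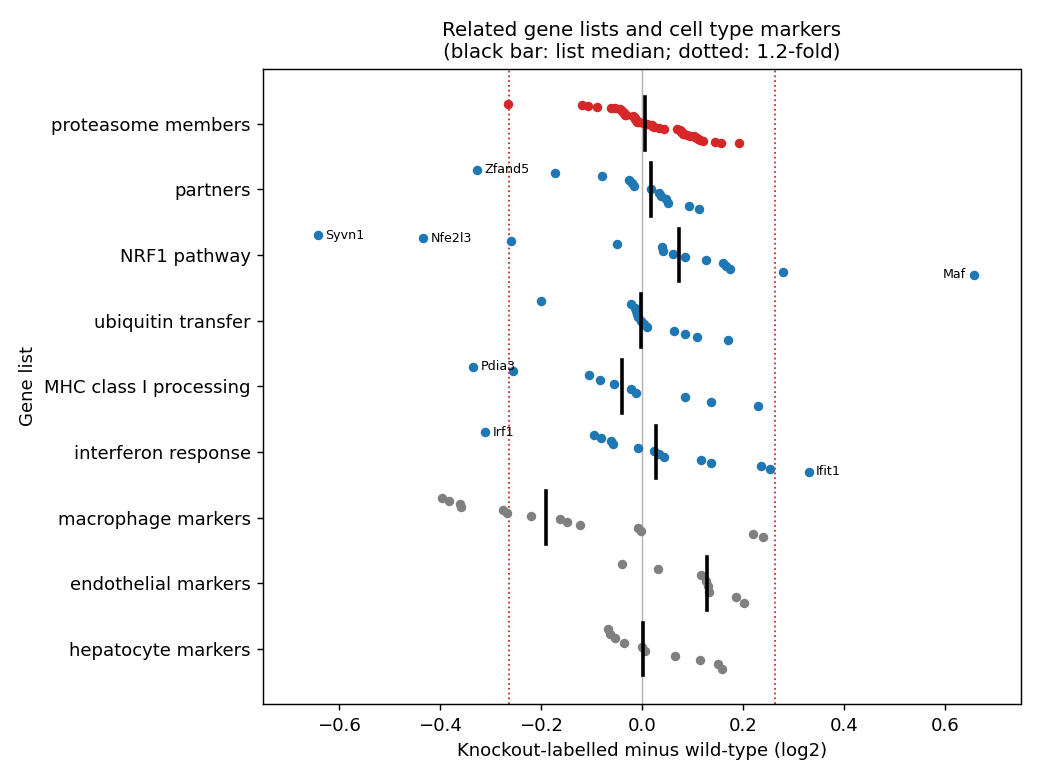
Difference between the pools (horizontal axis, knockout-labelled minus wild-type, log2) for the proteasome members (red), related pathway lists (blue) and cell type markers (grey), 1 point per gene past the level filter, with list medians as black bars. The members and ubiquitin transfer genes cluster around 0, the NRF1 list runs from Syvn1 at -0.64 to Maf at 0.66, and the macrophage median lies at -0.19.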

How the data were processed

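The deposited table holds log2 values, 1 per probe and array, for 2 arrays, each of 300 ng total RNA from 1 pool, per the labels. Affymetrix Expression Console 1.0, RMA and Partek 6.4 are named in the submitters' processing notes with no order or role, and the sources used here give no genome build. The RMA method brings arrays to a common distribution, which hides a change in total RNA, and compresses differences of dim probes. The table has no detection call, and with so few arrays precision is limited by their number. Levels of different probes cannot be compared as amounts.

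Of 28853 probes, 21789 had 1 symbol in the platform annotation, 1621 several and 5443 none. All 48 members, on 54 probes, matched GRCm38.p6 by Entrez identifier. Values were computed with pandas 2.3.3 on Python 3.11.15. A difference is the knockout-labelled minus the wild-type log2 value with no further scaling. The steps were tested on simulated data. Described in full were the catalytic and inducible subunits, the extremes of each class, members with several probes and the 5 largest differences each way. In other lists, the 3 largest differences each way past 1.2-fold were to be named, and further genes were chosen for their role or after their values were seen. The members, lists and rules were chosen with earlier results of these data known. The 8 alternatives are given in the closing section.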

Additional observations from a re-analysis of the deposited data

How the results depend on the processing

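No paired analysis was possible because each group holds 1 array. No member past the level filter reached 1.5-fold under any alternative, and without the filter Psmb11 did. Without the level filter there was 1 member at least 1.5-fold higher and there were 2 at least 1.2-fold higher, and the median of the inducible beta subunits turned to 0.033. The common median shift moved the median of all members to 0.0475, left 0 members at least 1.2-fold lower and 39 above 0, and turned the medians of the standard beta subunits to 0.0319, the inducible ones to 0.0306, the ATPases to 0.0056 and the lid to 0.0269. Lowess on level turned the median of all members to -0.0394 and that of the other base subunits to -0.0017. It moved the assembly median to 0.0153. The median of all genes past the filter was 0.0806 with the common shift and 0.0039 with lowess. Under a filter raised to the 60th percentile the median of all members was 0.0027, 23 were above 0 and the assembly median was 0.0716. With symbols that go on after the number, of which Psme3ip1 lay past the filter, the median of all was also 0.0027. The mean over probes turned the median of all members to -0.0015 and moved Psma5 to 0.18. Means in place of medians were 0.0419 for the standard beta subunits and 0.0078 for the lid. Without Psmb10, its most extreme member, the inducible median was 0.0330. The class medians printed so far in this section are all smaller than 0.1. With 1 array per pool, the sign of a class median is not settled at any size. With the common shift the median of the activators and inhibitor was 0.1230 and that of the assembly factors 0.1155. With lowess on level they were 0.0384 and 0.0153. Of the 48 single members, 15 passed from below to above 0 with the common shift, 6 changed sign with lowess and 1 with the mean over probes. The other 72 of 89 values under an alternative kept their sign and stayed within 1.5 times the count, or within the SD between probes divided by the root of the number of members.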
